A study of Mus musculus with 12 samples.

Results

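The 10 genes described here carry out the synthesis, conjugation and transport of bile acids in the mouse liver, and each was followed in peak lists of H3K9ac, histone H3 acetylated at lysine 9. They were chosen by name, as *Cyp7a1*, *Hsd3b7*, *Cyp8b1*, *Akr1d1* and *Cyp27a1* for synthesis, *Slc27a5* and *Baat* for conjugation, *Slc10a1* and *Slco1b2* for uptake from the blood, and *Abcb11* for export into bile. All 10 were found among the 21911 protein-coding genes of the GENCODE M21 annotation of mm10. For each gene a locus was taken, made of the gene body and 5 kb either side of the annotated start, and peaks that overlapped it were collected. The question behind the strains was whether acetylated domains at promoters differ between B6 and MSM mice and in their hybrids.

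H3K9ac was measured by ChIP-seq (sequencing of DNA recovered by chromatin immunoprecipitation) in adult livers, with 1 peak list per mouse and no treatment given in the labels. There were 2 C57BL/6J mice (B6), the strain of the reference genome, and 2 MSM/Ms mice (MSM), inbred from wild mice of Japan. The reciprocal F1 crosses gave 1 mouse each, F1 BM with B6 as the maternal strain and F1 MB with MSM as the maternal strain, so the hybrid values have no replicate error. The 6 input libraries of the same strains and crosses were not analysed here. Liver tissue mixes cell types, and an F1 list does not separate the maternal and the paternal chromosome.

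The lists differed in length. B6 replicate 1 had the longest list, with 22968 peaks over 16.0 Mb, and B6 replicate 2 the shortest, with 11619 peaks over 6.28 Mb. The MSM lists were close to each other, with 17310 and 17584 peaks, and F1 BM had 20173 and F1 MB 13235. Read counts are not part of the lists and library depth was not used here, so a missing peak cannot be told apart from one too weak to be called in that library. All 5 hepatocyte markers (*Alb*, *Ttr*, *Apoa1*, *Tat* and *Cps1*) had a peak within 1 kb of the start in all 6 libraries. Of 16 markers of cholangiocytes, Kupffer cells, endothelial cells, stellate cells and T cells, none had one in all 6 libraries and 11 had one in none. The other 5 had one in some, with 3 and 0 markers in the B6 mice, 1 and 3 in the MSM mice, 4 for F1 BM and 0 for F1 MB. In bulk tissue, fewer cells with a mark and less mark per cell cannot be told apart.

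Bile acids are made from cholesterol in hepatocytes. In the classic pathway, *Cyp7a1* adds the first hydroxyl group and sets the rate, *Hsd3b7* and *Akr1d1* modify the sterol ring, *Cyp8b1* adds the hydroxyl group that distinguishes cholic acid, and *Cyp27a1* oxidises the side chain. *Slc27a5* then activates bile acids with coenzyme A and *Baat* joins them to taurine or glycine. *Slc10a1* (NTCP) and *Slco1b2* bring bile acids back from portal blood into hepatocytes, and *Abcb11* (BSEP) pumps them into the bile canaliculus. H3K9ac marks the promoters of active genes and the first part of their transcribed region.

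The sequences on which the results below turn are the start regions of *Cyp8b1*, *Slco1b2*, *Slc10a1* and *Abcb11*, each 250 bases before to 50 bases after the start, from RefSeq (GRCm38.p6, the same build as mm10). *Cyp8b1* and *Slco1b2* are shown because the strains did not overlap there in covered length over the locus or in start rank. At *Slco1b2* the covered length within 1 kb of the start did overlap. *Slc10a1* is shown because its start ranked highest, and *Abcb11* as the exporter. The capitals mark any match, on either strand, to a TATA box (TATAAA), a nuclear receptor half-site (AGGTCA) or an HNF1 half-site (GTTAAT).
Cyp8b1, chr9:121916256-121916555, minus strand: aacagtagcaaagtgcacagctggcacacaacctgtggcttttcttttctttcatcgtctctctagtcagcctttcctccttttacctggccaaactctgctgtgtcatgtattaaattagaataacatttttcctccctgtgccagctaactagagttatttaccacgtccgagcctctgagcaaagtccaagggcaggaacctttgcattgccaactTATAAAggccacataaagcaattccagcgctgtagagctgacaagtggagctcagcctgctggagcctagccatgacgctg
Slco1b2, chr6:141629268-141629567, plus strand: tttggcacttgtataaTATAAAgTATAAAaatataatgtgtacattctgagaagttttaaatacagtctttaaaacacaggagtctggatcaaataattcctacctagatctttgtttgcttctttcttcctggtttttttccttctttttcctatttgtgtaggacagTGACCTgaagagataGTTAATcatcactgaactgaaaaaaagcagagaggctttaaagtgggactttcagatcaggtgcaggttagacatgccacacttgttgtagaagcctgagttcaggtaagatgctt
Slc10a1, chr12:80968656-80968955, minus strand: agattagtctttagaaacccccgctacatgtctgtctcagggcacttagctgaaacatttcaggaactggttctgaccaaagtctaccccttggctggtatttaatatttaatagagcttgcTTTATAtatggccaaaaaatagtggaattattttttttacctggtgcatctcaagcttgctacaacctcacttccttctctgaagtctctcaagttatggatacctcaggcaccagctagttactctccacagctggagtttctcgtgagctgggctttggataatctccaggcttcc
Abcb11, chr2:69342567-69342866, minus strand: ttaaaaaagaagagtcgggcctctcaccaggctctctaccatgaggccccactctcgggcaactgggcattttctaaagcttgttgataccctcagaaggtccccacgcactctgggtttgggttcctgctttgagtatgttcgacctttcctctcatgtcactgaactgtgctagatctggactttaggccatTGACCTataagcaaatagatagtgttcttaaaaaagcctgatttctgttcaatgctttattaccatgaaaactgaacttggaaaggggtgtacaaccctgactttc
The next stretch is the reference (B6) sequence from −425 to −135 bp of the *Cyp8b1* start (negative is upstream), where both MSM libraries and neither B6 library had a peak. Its capitals mark the only match to any of the searched motifs, a CCAAT box (CCAAT) at −348 to −344 bp.
Cyp8b1 upstream, chr9:121916440-121916730, minus strand: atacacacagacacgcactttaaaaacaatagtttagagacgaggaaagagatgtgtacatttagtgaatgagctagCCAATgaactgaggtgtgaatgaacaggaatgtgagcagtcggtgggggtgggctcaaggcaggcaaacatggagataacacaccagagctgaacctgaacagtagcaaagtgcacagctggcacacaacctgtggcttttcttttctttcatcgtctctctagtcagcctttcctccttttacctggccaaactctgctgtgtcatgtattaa

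The RefSeq table held start regions for 7 of the 10 genes and no entry for *Cyp7a1*, *Slc27a5* and *Baat*. The 7 start regions were poor in CpG, with a median of 3 CpG in 300 bases against 7 over 32851 start regions in the table, and 6 of the 7 had at most 5 (43.6% of all). *Slco1b2* had 0 CpG and *Cyp27a1* the most, at 10. TATAAA on either strand was present in 3 of 7 (13.6% of all), at −31 to −26 bp in *Cyp8b1*, further upstream in *Slco1b2*, and on the minus strand in *Slc10a1*. AGGTCA was present in 3 of 7 (16.3% of all), at *Abcb11*, *Akr1d1* and *Slco1b2*, not counting a second *Slc10a1* start 626 bp downstream. GTTAAT was present in 1 of 7 (7.10%), at *Slco1b2*. CCAAT was present in 1 of 7 (37.4%), at *Cyp27a1*, and the LRH-1 core CAAGGTC in 0 of 7 (3.96%). These matches describe the letters in the windows and say nothing about binding.

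All 10 genes had a peak within 1 kb of the start in all 6 libraries. Over all protein-coding genes the percentage was 23.6% (5166 of 21911). Under stricter lists this was lost at *Cyp7a1* and *Cyp8b1*. At a −log10 q of at least 5, *Cyp7a1* had 0 bp under peaks in B6 replicate 2 and MSM replicate 2. *Cyp8b1* then had 0 bp in B6 replicate 2. With all lists limited to equal numbers of peaks or equal covered length, *Cyp7a1* had 0 bp in B6 replicate 1 and MSM replicate 2. With equal covered length *Cyp8b1* had 0 bp in B6 replicate 1. Together the 10 loci held 33 and 23 peaks in the B6 libraries, 28 and 29 in the MSM libraries, 40 in F1 BM against 23 in F1 MB. The loci differed in how the peaks lay. At *Slc10a1* and *Abcb11* the peaks lay together over the start and the first introns, whereas *Akr1d1*, *Cyp27a1* and *Slco1b2* also had scattered intronic peaks.

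**Figure D1:**
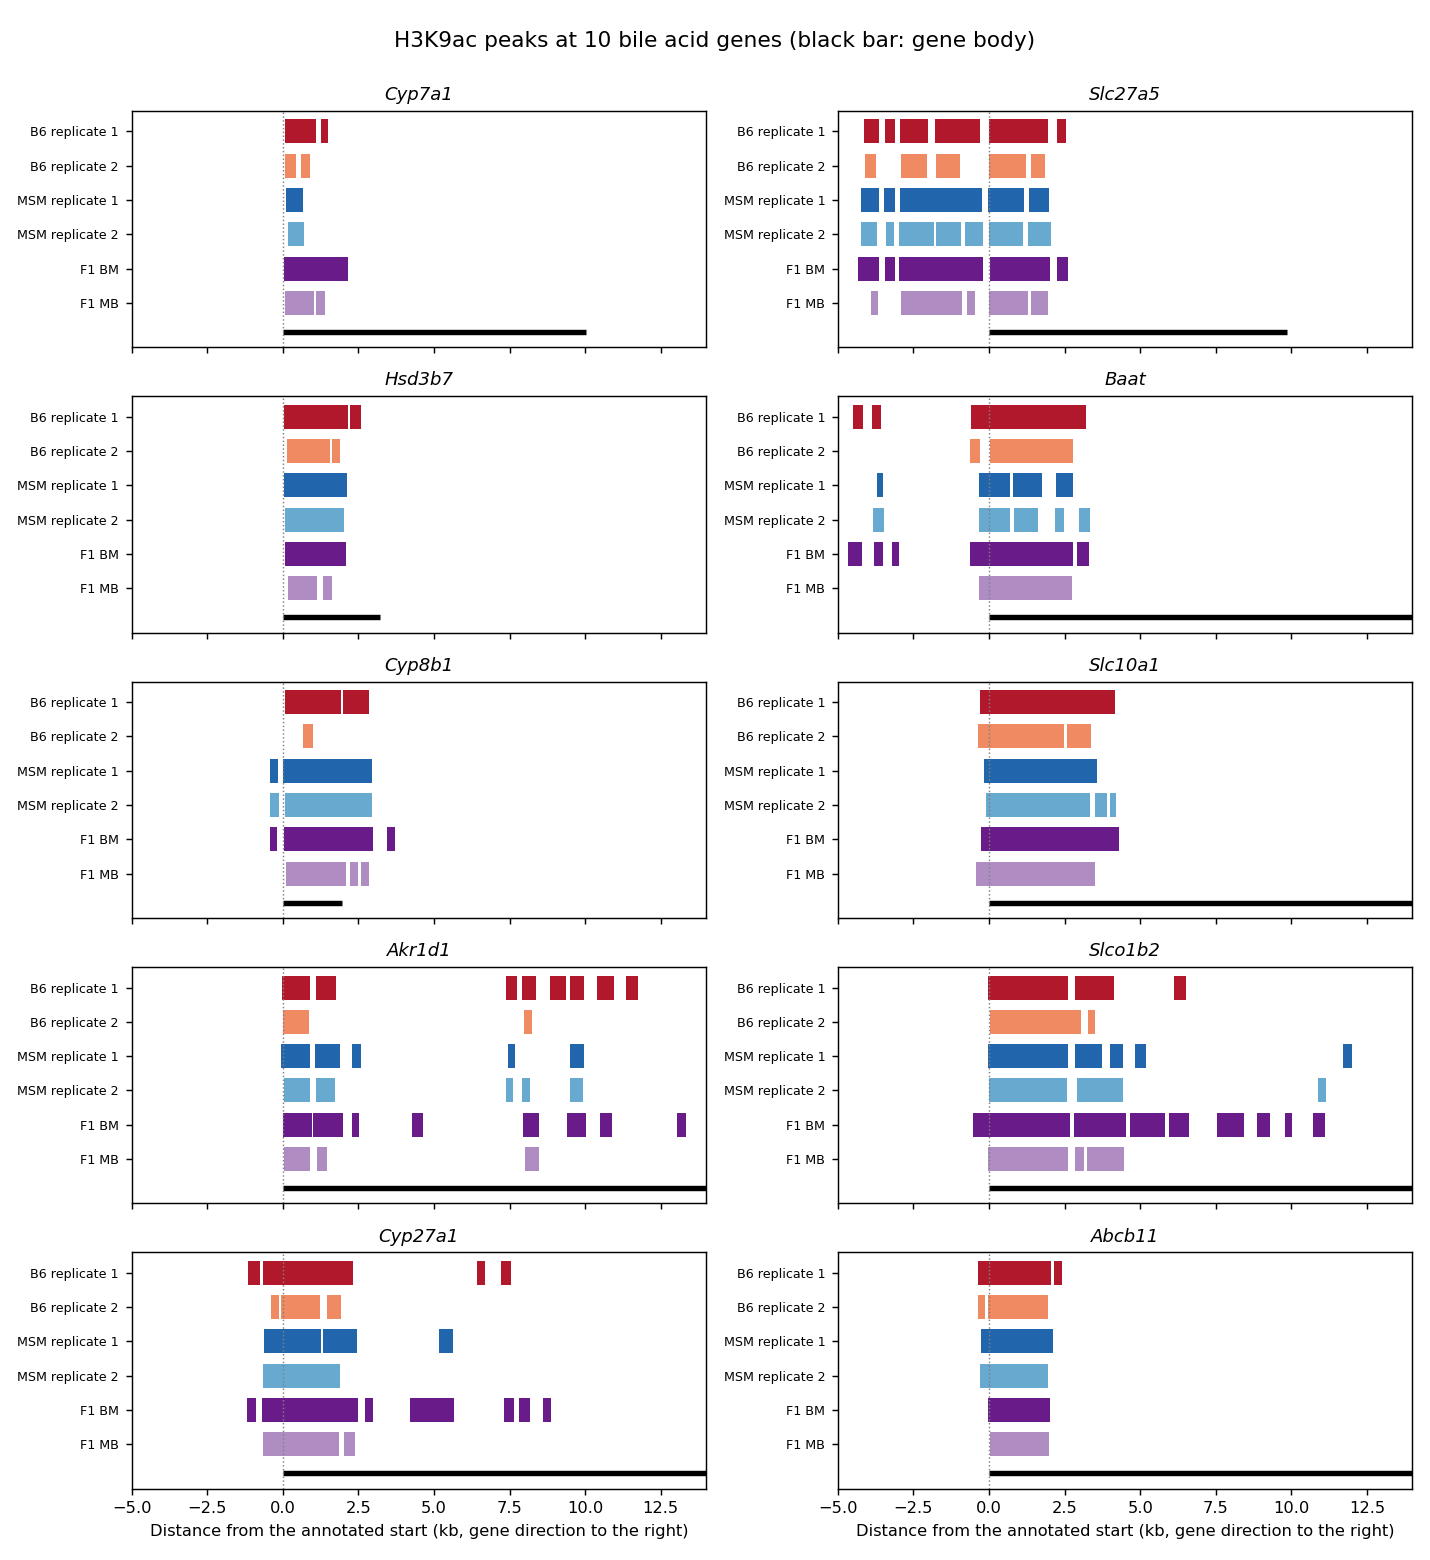
H3K9ac peaks at the 10 genes, with distance from the annotated start in kb on the x axis (gene direction to the right), 1 row per library, and the gene body as a black bar cut at the edge of the panel. Peaks lie from the start into the gene in all 6 libraries, *Cyp8b1* has a peak before the start in MSM replicates 1 and 2 and F1 BM, and F1 BM has the most peaks (40).

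The acetylated domains at these starts were wide. Peaks up to 500 bp apart were joined into a domain, and the domain at the start had a median width over the 10 genes of 3114 and 2068 bp in B6, 3080 and 2404 bp in MSM, 4033 bp in F1 BM against 2890 bp in F1 MB. The median over all genes with a start domain was 1120, 616, 748, 762, 837 and 657 bp in the same order. The bile acid genes lay above the all-gene median at 10, 9, 9, 9, 10 and 10 of 10. In the widest 10% of start domains there were 7, 6, 9, 6, 7 and 7 of them, and *Cyp27a1*, *Slc27a5*, *Slc10a1* and *Slco1b2* were there in all 6 libraries. The domain of *Slc27a5* was joined to peaks over its neighbour *Trim28* in 5 of 6 libraries, all but B6 replicate 2, so its width is not that of 1 gene. By the medians, most of the width lay on the downstream side. The domains reached a median of 2572, 1909, 2519, 1983, 2797 and 2186 bp into the gene, against 772, 604, 648, 657, 746 and 620 bp over all genes. On the upstream side the medians were 168, −3, 216, 201, 345 and −0.5 bp, where a negative reach means that the domain begins after the start. Over all genes they were 341, −24, 12, −1, 24.5 and −21 bp. The bile acid genes thus reached less far upstream than the median gene in B6 replicate 1, and further in all the other libraries.

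**Figure D2:**
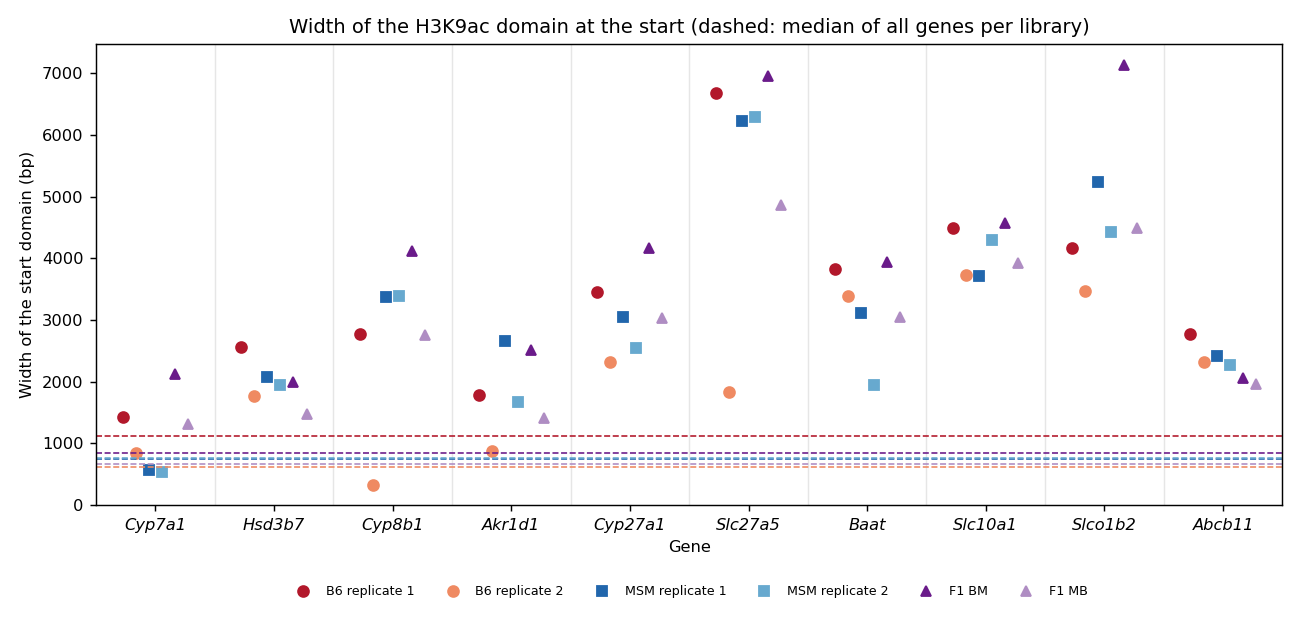
Width of the H3K9ac domain at the start in bp for each gene (circles B6, squares MSM, triangles F1, 1 point per mouse), with the median over all genes of each library as a dashed line in the same colour. Most points lie above the lines, which run from 616 to 1120 bp, and the points below them are *Cyp7a1* in both MSM mice and *Cyp8b1* in B6 replicate 2.

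Starts were also compared by strength. The fold enrichment is set within each list by the peak caller, so for each library the highest fold of a peak within 1 kb of the start was ranked over all protein-coding genes, with rank 1 the strongest. *Slc10a1* had ranks of 66 and 22 in B6, 283 and 11 in MSM, 55 in F1 BM and 14 in F1 MB, with folds from 10.8 to 20.4. It came first of the 10 genes in 4 of 6 libraries. *Cyp7a1* had ranks of 9531 and 5905 in B6, 5139 and 7919 in MSM, 805 in F1 BM against 4329 in F1 MB, and came last in 5 of 6. Its folds were 3.19 and 3.03 in B6, 5.03 and 2.53 in MSM, 6.44 in F1 BM against 4.67 in F1 MB. The gene of the rate-setting enzyme thus had the weakest start of the list in the parental strains.

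By mean rank over the 4 parental mice the order was *Slc10a1* (95.5 ± 127, SD, n = 4), *Slc27a5* (654 ± 533), *Baat* (763.5 ± 557), *Hsd3b7* (776.5 ± 542), *Cyp27a1* (846.5 ± 494), *Abcb11* (1023 ± 1077), *Slco1b2* (1420 ± 1469), *Akr1d1* (2688 ± 2631), *Cyp8b1* (3693 ± 2810) and *Cyp7a1* (7124 ± 1988). From *Slc27a5* to *Cyp8b1*, each gene differed from the next by less than the SD of the pair's later member, so this middle part of the order is not resolved. The start window of *Slc27a5* also holds the start of *Trim28*, 922 bp upstream on the opposite strand, so its rank can come from a peak of *Trim28*.

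**Figure D3:**
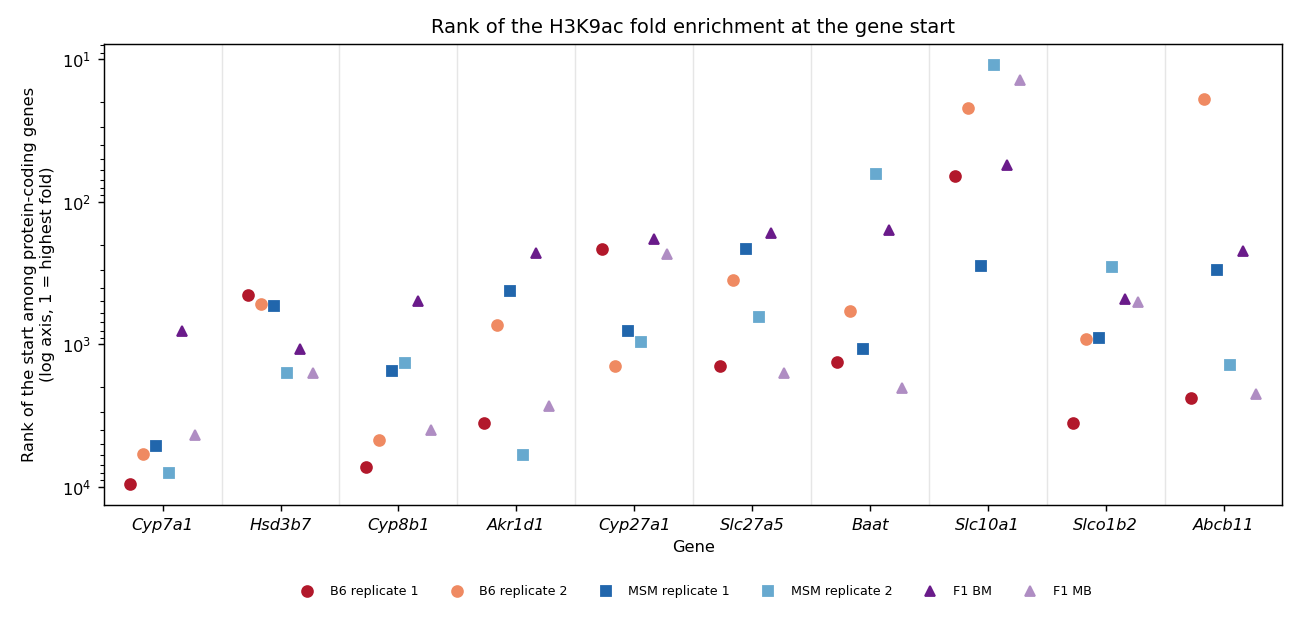
Rank of the fold enrichment at the start among all protein-coding genes of the library (log axis, inverted, rank 1 at the top), with 1 point per mouse (circles B6, squares MSM, triangles F1). *Slc10a1* lies between 11 and 283, *Cyp7a1* between 805 and 9531, and *Cyp8b1* has both MSM mice above both B6 mice.

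The strains were compared by the length under peaks in each locus and by the start rank, with an exact permutation test (two-sided, 6 ways to assign the 4 parental mice to strains). Its smallest possible p is 0.333, so no difference could pass 0.05, and each is set against the pooled within-strain SD. In covered length, both B6 mice lay above both MSM mice at 2 of 10 genes (*Cyp7a1* and *Baat*), against 11.6% of 11446 genes. Both MSM mice lay above both B6 mice at 2 (*Cyp8b1* and *Slco1b2*), against 4.97%. At the other 6 the strains overlapped. B6 replicate 2 was lowest of the 4 at 8 of 10 genes and B6 replicate 1 highest at 7, and those are the shortest and the longest list. In start rank, *Hsd3b7* had the lower rank numbers in both B6 mice (all genes 15.1%), and *Cyp8b1* and *Slco1b2* were stronger in both MSM mice (all genes 18.0%). At *Slco1b2* this rests on 902 against 914. The ranks are out of 9688 and 6123 genes with a start peak in B6 and 7784 and 7930 in MSM. As a percentile of the fold among those genes, *Hsd3b7* overlapped between the strains, and *Cyp8b1* and *Slco1b2* were higher in both MSM mice.

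**Figure D4:**
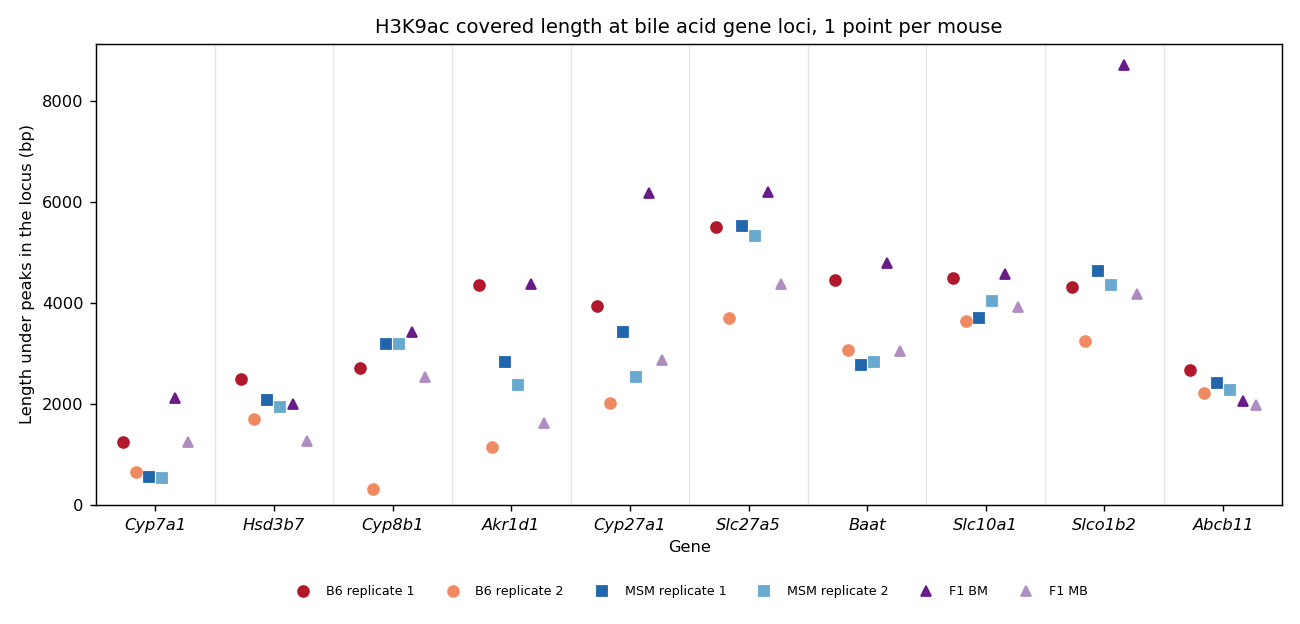
Length under H3K9ac peaks in each locus in bp, 1 point per mouse (circles B6, squares MSM, triangles F1). At *Cyp8b1* the MSM mice lie at 3197 and 3195 bp and the B6 mice at 2712 and 323 bp, at *Baat* B6 lies above MSM, and at *Slco1b2* F1 BM lies at 8709 bp (4924 bp with all lists limited to the same covered length).

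*Cyp8b1* (ENSMUSG00000050445.4, chr9:121914356-121916305, minus strand) is a short gene of 1950 bp. Peaks covered 2712 and 323 bp of its locus in B6, 3197 and 3195 bp in MSM, 3425 bp in F1 BM and 2528 bp in F1 MB. MSM exceeded B6 by 1678 bp with a pooled SD of 1195 bp (exact permutation p = 0.333, n = 2 and 2), and most of that spread came from the low B6 replicate 2. Without B6 replicate 2 the difference was 484 bp and without B6 replicate 1 it was 2873 bp. Both MSM mice also lay above both B6 mice when every list was limited to the same number of peaks or to the same covered length. Its start ranked 7239 and 4657 in B6, 1534 and 1342 in MSM, 498 in F1 BM against 3994 in F1 MB. The strains did not overlap, and the mean difference of 4510 ranks in favour of MSM exceeded the pooled SD of 1295 (exact permutation p = 0.333). The gene body was covered over 95.7 and 16.6% of its length in B6, 99.2 and 96.9% in MSM, 98.1% in F1 BM and 94.6% in F1 MB. In the full lists acetylation thus ran over nearly the whole gene in 5 of 6 mice. The covered length in B6 replicate 1 was 1866 bp with equal numbers of peaks and 0 bp with equal covered length. B6 replicate 2 had 323 bp in both cases.

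The *Cyp8b1* domain, with a separate upstream peak joined to it, extended upstream of the start in MSM. It reached 421 and 425 bp upstream in the MSM mice and 419 bp in F1 BM, whereas in B6 it began 74 and 672 bp after the start, and in F1 MB 105 bp after it. The main MSM peaks alone began 15 and 61 bp after the start, and without joining the strain difference in reach was 335 bp in place of 796 bp. The upstream peak, in the stretch printed above, was the only strain-specific region among 36 parental union regions in the 10 loci. Over the genome 3.38% of 25803 regions were MSM-specific and 3.29% B6-specific, and no region of the 10 loci was B6-specific. The peak had a fold of 2.84 and 4.49 in MSM and 2.29 in F1 BM, and it was absent from both B6 lists and from F1 MB. It was a weak peak, with a −log10 q of 2.79 and 5.68 in MSM. It was no longer strain-specific at a −log10 q of at least 5, or when every list was limited to the same number of peaks or the same covered length.

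*Slco1b2* (ENSMUSG00000030236.10, chr6:141629518-141686646, plus strand) had 4322 and 3251 bp under peaks in B6, 4626 and 4364 bp in MSM, 8709 bp in F1 BM and 4182 bp in F1 MB. MSM exceeded B6 by 708.5 bp with a pooled SD of 551 bp (exact permutation p = 0.333), and the nearest mice of the strains, at 4364 and 4322 bp, were almost level. The strains overlapped at a −log10 q of at least 5, within 1 kb of the start, and when all lists were limited to the same number of peaks. The start ranked 3580 and 914 in B6, 902 and 285 in MSM, 479 in F1 BM and 508 in F1 MB. F1 BM had a peak in 6 of 7 regions beyond the first, which lie in introns or over an internal exon. The folds were low, from 2.44 to 3.01. The B6 mice had a peak in 1 and 0 of these 7, the MSM mice in 2 and 1, and F1 MB in 0. The F1 BM length was 5584 bp when all lists were limited to equal numbers of peaks and 4924 bp at equal covered length, against 4094 bp in the highest parent, MSM replicate 2, in both cases.

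*Baat* (ENSMUSG00000039653.9, chr4:49489422-49506557, minus strand) had 4454 and 3069 bp under peaks in B6, 2763 and 2831 bp in MSM, 4801 bp in F1 BM and 3054 bp in F1 MB. B6 exceeded MSM by 964.5 bp on average, with a pooled SD of 693 bp (exact permutation p = 0.333). The order was kept when all lists were limited to the same number of peaks or the same covered length, at a −log10 q of at least 5, and within 1 kb of the start. The upstream edge of the domain differed most against its spread. It lay 602 and 616 bp before the start in B6, 337 and 328 bp in MSM, 638 bp in F1 BM against 317 bp in F1 MB. The strain difference was 276.5 bp and the pooled SD 8.32 bp (exact permutation p = 0.333), and F1 BM sat with B6 and F1 MB with MSM. It depends on joining, since in B6 replicate 2 the upstream peak is separate from the main one, and without joining the mean difference turned to 43 bp in favour of MSM.

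*Cyp7a1* (ENSMUSG00000028240.2, chr4:6265612-6275633, minus strand) had 1250 and 662 bp under peaks in B6, 563 and 530 bp in MSM, 2117 bp in F1 BM against 1253 bp in F1 MB. The B6 mean lay 409.5 bp above the MSM mean with a pooled SD of 294 bp (exact permutation p = 0.333), and F1 BM lay above all 4 parents. F1 MB exceeded B6 replicate 1 by only 1253 against 1250 bp, and in domain width it lay within the parents. The strains overlapped at a −log10 q of at least 5 and when lists were limited to the same number of peaks or the same length. In all 6 mice the domain began after the start, 35 to 184 bp into the gene, in a single region of 2117 bp over exons and introns. Peaks covered 12.5 and 6.61% of the gene body in B6, 5.62 and 5.29% in MSM, 21.1% in F1 BM and 12.5% in F1 MB.

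*Slc10a1* (ENSMUSG00000021135.8, chr12:80953183-80968705, minus strand) varied little. It had 4487 and 3652 bp under peaks in B6, 3706 and 4032 bp in MSM, 4575 bp in F1 BM and 3929 bp in F1 MB, all in a single region from 419 bp before to 4303 bp after the start. The strains overlapped in covered length and in rank. The upstream edge lay further out in B6, at 309 and 378 bp against 151 and 92 bp in MSM, a difference of 222 bp with a pooled SD of 45.4 bp (exact permutation p = 0.333). The reach was 271 bp in F1 BM and 419 bp in F1 MB.

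*Abcb11* (ENSMUSG00000027048.15, chr2:69238282-69342616, minus strand) was covered over 2678 and 2215 bp in B6, 2413 and 2269 bp in MSM, 2066 bp in F1 BM against 1970 bp in F1 MB. The strains overlapped, and F1 BM and F1 MB lay below all 4 parents. Its domain edge before the start lay at 350 and 354 bp in B6 and 281 and 310 bp in MSM, an order lost without joining. In F1 BM it lay 37 bp before the start, and in F1 MB 29 bp after it. The gene spans 104335 bp, and peaks covered 1.88 to 2.23% of it.

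*Hsd3b7* (ENSMUSG00000042289.11, chr7:127800604-127803802, plus strand) had 2494 and 1703 bp under peaks in B6, 2081 and 1948 bp in MSM, 2000 bp in F1 BM and 1274 bp in F1 MB, with overlap between the strains. Its start ranked 454 and 523 in B6, 542 and 1587 in MSM, 1078 in F1 BM and 1594 in F1 MB, so the order of the strains in rank rests on 523 against 542. As percentiles of the genes ranked, its values were 95.3 and 91.4 in B6 and 93.0 and 79.9 in MSM, and the strains overlapped. Peaks covered 39.8 to 78.0% of this compact gene. The same regions overlap the annotated genes *9430064I24Rik*, which starts 2158 bp downstream on the opposite strand, and *Gm49388*, so the peaks cannot be assigned to 1 gene.

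*Slc27a5* (ENSMUSG00000030382.15, chr7:12988346-12998192, minus strand) had the most covered length of the list in both MSM mice and in both B6 mice, with 5503 and 3703 bp in B6, 5533 and 5334 bp in MSM, 6206 bp in F1 BM against 4377 bp in F1 MB. The strains overlapped in the full lists. Both MSM mice lay above both B6 mice with equal numbers of peaks (4895 and 3703 bp in B6, 5533 and 5334 bp in MSM). The same held with equal covered length (3461 and 3703 bp against 5533 and 5067 bp) and within 1 kb of the start. In its own gene, a region from −19 to 2064 bp of the start had a peak in all 6 libraries. The 3 regions upstream, out to 4328 bp, overlap *Trim28*, so the upstream reach of 4137 and −15 bp in B6, 4224 and 4228 bp in MSM, 4328 bp in F1 BM and 2909 bp in F1 MB belongs in part to that gene.

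*Akr1d1* (ENSMUSG00000038641.12, chr6:37530173-37568815, plus strand) had the most regions, 11, with 4365 and 1138 bp under peaks in B6, 2840 and 2377 bp in MSM, 4382 bp in F1 BM against 1630 bp in F1 MB. In the full lists the difference between the B6 mice, 1 with 8 peaks and 1 with 2, exceeded any difference between the strains. With equal numbers of peaks the lengths were 1393 and 1138 bp in B6 and 2624 and 1481 bp in MSM. With equal covered length they were 929 and 1138 bp in B6 and 1815 and 1481 bp in MSM. In both cases both MSM mice lay above both B6 mice. A group of 7 intronic regions lay 7384 to 13323 bp downstream of the start. B6 had a peak in 6 and 1 of them, MSM in 2 and 3, F1 BM in 4 and F1 MB in 1. The region at 7905 to 8470 bp had a peak in 5 libraries, with folds of 6.57 and 4.21 in B6, 0 and 3.23 in MSM, 3.09 in F1 BM and 4.09 in F1 MB, where 0 means no peak.

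*Cyp27a1* (ENSMUSG00000026170.6, chr1:74713574-74737892, plus strand) had 3943 and 2019 bp under peaks in B6, 3430 and 2538 bp in MSM, 6185 bp in F1 BM against 2861 bp in F1 MB. The strain means differed by 3 bp with a pooled SD of 1060 bp. Its main region ran from −678 to 2477 bp of the start in the union of the lists. Of 6 intronic regions further down, B6 had a peak in 2 and 0, MSM in 1 and 0, F1 BM in 5 and F1 MB in 0.

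Over the 10 loci the peaks of all 6 lists formed 45 union regions. Of these, 12 had a peak in all 6 libraries (26.7%, against 25.3% of 27326 union regions over the genome). Of the 12, 11 lay at least partly within 1 kb of a start. Among these was a region upstream of *Slc27a5* (−2987 to −185 bp) that overlaps *Trim28*. The other of the 12, further upstream of *Slc27a5* (−4328 to −3640 bp), also overlaps *Trim28*. A peak in 1 library alone was found in 16 regions (35.6%, against 30.6% over the genome). Of these, 10 were in F1 BM, 5 in B6 replicate 1 and 1 in MSM replicate 1. F1 BM alone thus held 22.2% of the 45 regions, against 6.99% of 27326 union regions over the genome, and B6 replicate 1 alone 11.1% against 17.2%. The 10 regions of F1 BM alone had low folds, from 2.44 to 3.87. Of 32 regions more than 1 kb from a start, 1 had a peak in all 4 parental mice. Of the 45 regions, the B6 mice had a peak in 29 and 13, the MSM mice in 22 and 20, F1 BM in 38 and F1 MB in 14. Over the genome F1 BM had a peak in 64.6% of regions, against 84.4% here, and F1 MB in 41.0%, against 31.1% here. The B6 mice had one in 80.6 and 35.0% over the genome, against 64.4 and 28.9% here. The MSM mice had one in 54.0 and 54.6%, against 48.9 and 44.4% here. Of 13 regions within 1 kb of a start, the 2 without a peak in all 6 libraries were the upstream ones of *Cyp8b1* (−425 to −135 bp) and *Cyp27a1* (−1196 to −743 bp, B6 replicate 1 and F1 BM).

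The domain edges were compared between the strains in the same way. In width, both B6 mice exceeded both MSM mice at 2 of 10 genes (all genes 16.6%), *Cyp7a1* and *Baat*, and MSM exceeded B6 at 2 (all genes 5.47%), *Cyp8b1* and *Slco1b2*. The downstream edge separated the same 4 genes, with B6 further at 2 (all genes 19.1%) and MSM further at 2 (all genes 8.12%). At *Baat* this rests on 2770 bp in B6 replicate 2 against 2768 bp in MSM replicate 1, and with joining up to 1000 bp the strains overlapped in width and downstream edge, the latter at 58.5 bp in favour of MSM. Without joining, *Cyp7a1* overlapped in both measures, and at *Slco1b2* the width overlapped and the downstream edge lay further out in both B6 mice, at −228 bp (MSM minus B6). *Slc27a5* then separated with B6 above MSM, at −434 bp in width and −448.5 bp in the downstream edge. The upstream edge lay further out in both B6 mice at 4 genes (all genes 19.5%), *Cyp7a1*, *Baat*, *Slc10a1* and *Abcb11*. It lay further out in both MSM mice at 2 (all genes 6.24%), *Cyp8b1* and *Slc27a5*. Without joining, the upstream edge separated *Cyp7a1* and *Slc10a1* (B6) and *Cyp8b1* (MSM), the differences of *Baat* and *Abcb11* turned to 43 and 107 bp in favour of MSM, and that of *Slc27a5* fell from 2165 to 14.5 bp with overlap of the strains. With joining up to 1000 bp the *Slc27a5* difference was 111 bp, without overlap. The background counts 5579 genes with a start domain in the 4 parental lists.

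The F1 hybrids differed from each other. F1 BM exceeded F1 MB in covered length at all 10 genes, and at 67.8% of all genes with a peak. It also did so at all 5 hepatocyte markers. F1 BM lay above all 4 parents at 8 of 10 (all genes 14.3%), within their range at 1, *Hsd3b7*, and below all at 1, *Abcb11* (all genes 4.88%). Among the hepatocyte markers, F1 BM also lay above all 4 parents at *Alb*, *Ttr*, *Tat* and *Cps1*, and within their range at *Apoa1*. Its lengths there were 4961, 4375, 7978, 6149 and 6475 bp. The highest parent, B6 replicate 1, had 3792, 4361, 5936, 5245 and 6928 bp in the same order. F1 MB lay above all parents at 1, *Cyp7a1* (all genes 1.34%), within their range at 7, and below all at 2, *Hsd3b7* and *Abcb11* (all genes 18.5%). F1 BM had the second longest list and F1 MB the second shortest. With all lists limited to the same covered length, F1 BM still exceeded F1 MB at 10 of 10 genes, against 36.5% of all genes. The number with F1 BM above all parents then fell to 5 (*Cyp7a1*, *Akr1d1*, *Cyp27a1*, *Slc10a1* and *Slco1b2*), against 13.9% of all genes, and within 1 kb of the start it was 3, against 9.20%. The F1 MB call at *Cyp7a1* rests on 1253 against 1250 bp. The peaks in the 10 loci made up 0.363% of all covered length in each hybrid, against 0.226 and 0.346% in B6 and 0.322 and 0.304% in MSM. With 1 mouse per cross, cross and mouse cannot be told apart.

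A further 34 genes of bile acid metabolism, listed by role, were read in the same way. A peak within 1 kb of the start in all 6 libraries was present at 23 of them, against 23.6% of all protein-coding genes. By role, the peak was present at 6 of 11 other enzymes, 4 of 5 canalicular transporters, 3 of 7 basolateral transporters and 10 of 11 regulators. It was absent from all 6 at 9, *Cyp46a1*, *Ch25h*, *Scp2*, *Abcg8*, *Abcc4*, *Slco2b1*, *Slc51a*, *Slc51b* and *Hnf4a*. Of these, *Scp2*, *Abcg8*, *Slco2b1* and *Hnf4a* had peaks elsewhere in the locus, and other starts of these genes were not examined. The *Abcg8* gene body overlaps that of *Abcg5*, so their peaks cannot be assigned to 1 gene. *Hnf4a*, a master regulator of hepatocyte genes, had 7082 to 12851 bp under peaks. *Cyp46a1*, which hydroxylates cholesterol in neurons, and *Slc51a* and *Slc51b*, the basolateral exporter known from ileum, had no peak in the locus. The remaining 2 genes had a start peak in some libraries, *Cyp39a1* in 4 and *Acot8* in 3. The widest start domains by mean belonged to *Prox1* at 5177 bp, *Abcc2* at 5128 bp and *Nr1i2* at 4807 bp. *Prox1* and *Nr1i2* (PXR) encode transcription factors of the hepatocyte and *Abcc2* a canalicular exporter.

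**Figure D5:**
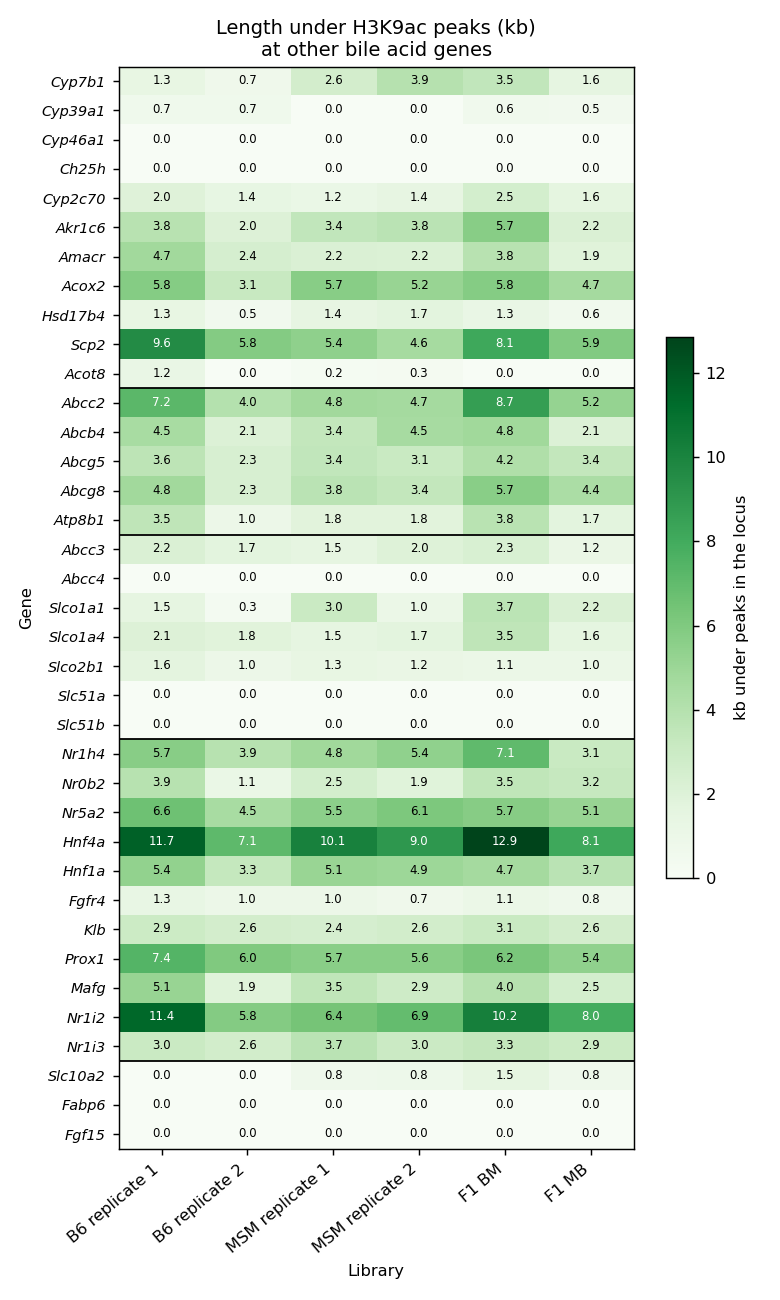
Length under H3K9ac peaks in kb in the locus of each of 34 other bile acid genes and, in the last block, 3 genes of the ileum, by library (columns), in blocks for other enzymes, canalicular transporters, basolateral transporters and regulators. *Hnf4a* and *Nr1i2* have the darkest rows, *Slc51a* and *Slc51b* are empty, and *Slc10a2* is empty in both B6 mice.

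In covered length, 29 of the 34 could be compared. Both B6 mice exceeded both MSM mice at 5 (17.2%), *Cyp39a1*, *Amacr*, *Scp2*, *Slco1a4* and *Prox1*, and MSM exceeded B6 at 2 (6.90%), *Cyp7b1* and *Hsd17b4*. These shares are set beside the 11.6 and 4.97% over all genes. *Cyp39a1*, an oxysterol hydroxylase, had a start peak in both B6 mice and both hybrids, with folds of 6.90 and 3.94 in B6, 0 in both MSM mice, 4.20 in F1 BM and 3.84 in F1 MB. *Cyp7b1*, the oxysterol hydroxylase of the alternative pathway, had 1345 and 735 bp in B6, 2582 and 3919 bp in MSM, 3451 bp in F1 BM and 1556 bp in F1 MB. *Cyp2c70*, which makes muricholic acids in mice, had an MSM-specific peak at −395 to −157 bp of the start, with folds of 3.0 and 2.20 in MSM and 3.87 in F1 BM, and none in F1 MB. The other strain-specific regions lay inside the gene, at *Amacr* and *Scp2* in B6 and at *Abcb4* in MSM, and F1 BM had each of them while F1 MB had none.

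Of 3 bile acid genes of the ileum, *Fabp6* and *Fgf15* had no peak. *Slc10a2*, the apical bile acid transporter of ileum and cholangiocytes, had 0 bp under peaks in both B6 mice, 757 and 817 bp in MSM, 1474 bp in F1 BM against 766 bp in F1 MB. The fold at its start was 8.58 and 6.93 in MSM, 4.98 in F1 BM and 3.97 in F1 MB. It was singled out after its values were seen.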

How the data were processed

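H3K9ac ChIP-seq libraries of 6 adult livers were analysed (B6 and MSM, 2 mice each; F1 BM and F1 MB, 1 each), grouped by sample title and strain label. The authors fixed tissue with formaldehyde, used antibody ab4441, sequenced 50-bp read pairs and trimmed them with Trim Galore. The study's methods name Bowtie 2 as mapper to mm10, whereas the submitters' processing notes list HISAT2, SAMtools and MACS2 without versions or roles. The threshold and the control of the peak calls are not given in the sources used here. MSM reads were mapped to B6 sequence, so reads over divergent sequence may be lost.

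The deposited narrowPeak lists, 1 per library, gave for each peak a fold enrichment (a linear ratio over the background of the authors' peak caller). They also gave the −log10 p-value and −log10 q-value as deposited by the authors, whose lowest −log10 q lay between 1.30 and 1.35, and a deposited score that was not used.

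Peaks were intersected by at least 1 bp with GENCODE M21 loci (gene body and 5 kb either side of the start of the longest gene) in Python 3.11.15 with numpy 2.4.6 and scipy 1.17.1 (figures with matplotlib 3.10.9). Covered length, start rank (highest fold within 1 kb), domains (peaks up to 500 bp apart joined) and union regions were computed. A region was strain-specific with a peak in both libraries of a strain and neither of the other. Functions were tested on simulated data. Strains were compared by two-sided exact permutation tests over the 4 parental mice (smallest p 0.333). Each parental library is a separate mouse. The labels do not say whether a replicate number marks a shared batch. Alternatives were peak filters at −log10 q of 2 and 5, equal numbers of peaks (11619), equal covered length (6.28 Mb), smaller windows, other joining distances, and leaving out each parental mouse.

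The 10 genes, the other lists and the motifs were chosen with earlier results of these data known. All 10 genes are named, and of the 34 other genes those with a strain-specific region, without a start peak in all 6 libraries, or with the 3 widest start domains, plus those whose strains did not overlap, which were named after their values were seen. The 6 input samples were not analysed here.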

Additional observations from a re-analysis of the deposited data

How the results depend on the processing

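The directions of *Cyp8b1*, *Slco1b2*, *Baat* and *Cyp7a1* in covered length (MSM minus B6) held under every alternative run, with 484 to 2873, 173 to 1244, −1657 to −272 and −703.5 to −115.5 bp when 1 parental mouse was left out. No test can pass its threshold here, so this says nothing of significance. The number of genes with B6 above MSM, 2 of 10, became 1 at a −log10 q of at least 5, with equal numbers of peaks and with equal covered length, and 2 to 7 with 1 mouse left out, 7 being without B6 replicate 2. The number with MSM above B6, also 2, became 1 at a −log10 q of at least 5, 3 with equal numbers of peaks and 4 with equal covered length, and 2 to 8 with 1 mouse left out, 8 being without B6 replicate 1. Under equal numbers of peaks the shares over all genes were 19.3 and 8.87%, and under equal covered length 15.6 and 17.5%, against 11.6 and 4.97%. Within 1 kb of the start, 3 genes had B6 above MSM (all genes 12.2%) and 2 the opposite (3.63%). B6-specific regions, 0, became 1 at a −log10 q of at least 5 and with equal numbers of peaks (*Akr1d1*, 7910 to 8373 bp), and 0 to 12 with 1 mouse left out. The 1 MSM-specific region became 0 at a −log10 q of at least 5, 3 with equal numbers of peaks, and 1 to 6 with 1 mouse left out. With equal covered length the 1 MSM-specific region was another, at *Akr1d1* (1053 to 1898 bp). The number of genes with F1 BM above all parents, 8, became 5 with equal covered length and 3 within 1 kb of the start, and the number below all, 1, became 0 at a −log10 q of at least 5. The number with F1 MB above all parents, 1, became 2 with equal numbers of peaks, equal covered length and the 5 kb window, against 6.28, 16.4 and 1.48% of all genes (alternatives chosen after seeing the data). The cause of these changes was not tested. With the replicate block (paired differences within replicate numbers, chosen after seeing the data for these counts), 2 genes had B6 above MSM and 3 MSM above B6, the smallest possible sign-flip p was 0.5, and deviations of same-numbered mice correlated at 0.0832 across 11446 genes, so the numbers are not taken to pair the mice.

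Differences in covered length that changed sign were those of *Hsd3b7* (108.5 bp with equal numbers of peaks or equal length, 38.5 bp within 1 kb), *Akr1d1* (787, 614.5, 571.5 and 11 bp with equal numbers, equal length, the 5 kb and the 1 kb window) and *Abcb11* (145.5 bp at a −log10 q of at least 5, 31.5 bp with equal numbers or length). With 1 mouse left out the ranges crossed 0 at *Hsd3b7* (−479.5 to 311.5), *Akr1d1* (−1756 to 1470), *Cyp27a1* (−959 to 965), *Slc27a5* (−69.5 to 1730), *Slc10a1* (−618 to 217) and *Abcb11* (−337 to 126). Differences in start rank changed sign with −log10 q in place of fold at *Cyp27a1* (−48.5), *Baat* (145.5) and *Abcb11* (180), and with 1 mouse left out at *Cyp7a1* (−3002 to 624), *Akr1d1* (−1742 to 3844), *Cyp27a1* (−533 to 663), *Slc27a5* (−980 to 76), *Baat* (−890.5 to 126.5), *Slc10a1* (−33 to 239) and *Abcb11* (−1515 to 834). Without joining peaks, domain width changed sign at *Hsd3b7* (252.5 bp), *Cyp27a1* (86.5), *Slc27a5* (−434), *Slco1b2* (−200.5) and *Abcb11* (145.5). Upstream reach did so at *Cyp27a1* (282.5), *Baat* (43) and *Abcb11* (107), and downstream reach at *Hsd3b7* (214), *Cyp27a1* (−196), *Slco1b2* (−228) and *Abcb11* (38.5). With joining up to 1000 bp, the width of *Slc27a5* (−50) and the downstream reach of *Baat* (58.5) changed sign.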
